A study of Homo sapiens with 13 samples.

Results

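The genes analysed were those of the DNA replication machinery: 49 genes whose names in the array design match a fixed set of patterns for the MCM helicase and its relatives, the origin recognition complex, licensing factors, CDC45 and GINS, the primase and replicative polymerases, the clamp and its loader, replication protein A, FEN1, LIG1, ribonucleotide reductase and thymidylate synthase. They were measured by 65 probes of 34127 and made up 49 of 25940 gene names on the array. The choice used names only and no measured value. CCRF-CEM, a human line from T cell acute lymphoblastic leukemia, was studied as parental cells (CEM PA) and as a population selected in rising FK866 until it was resistant to 100 nM (CEM RES). FK866 inhibits NAMPT, the enzyme that makes NAD+ from nicotinamide. Total RNA was taken after 48 h, and the arrays held 3 CEM PA mock samples, 2 CEM PA samples with 5 nM FK866, 4 CEM RES mock samples and 4 CEM RES samples with 5 nM FK866, mock being DMSO. The labels call the replicates biological. CEM RES is 1 resistant population and, per the methods, was kept under FK866, so its mock samples were not naive to the drug.

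DNA replication starts where the origin recognition complex, with CDC6 and CDT1, loads the MCM helicase on DNA. The helicase becomes active when CDC45 and GINS join it, primase and DNA polymerase alpha lay down primers, and polymerases epsilon and delta, held by the PCNA clamp that RFC loads, copy the leading and lagging strands. FEN1 and LIG1 join the lagging-strand fragments, RPA covers single-stranded DNA, and RRM1, RRM2 and TYMS make the deoxynucleotides. The genes of many of these proteins are known targets of E2F factors and peak around the entry into S phase, and dividing leukemia cells express them strongly.

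All 65 probes were kept and all 49 genes were well above background on all 13 arrays, so no gene was lost to the filter on dim signals. Between 26457 and 33239 of 43118 spots per array were well above background and 0 were saturated. Of 19 T lymphoblast markers, 18 were well above background on all arrays and DNTT on none, while of 4 epithelial markers KRT8 and KRT18 were above it on all arrays and EPCAM and CDH1 on none, and neither keratin passed the test between the mock lines (0.01 and -0.05). The summed T lymphoblast marker signal lay between 17.46 and 17.70 (log2) in CEM PA and between 17.69 and 17.88 in CEM RES. In mock CEM RES against mock CEM PA, 2 of 4 tested B cell markers were lower, CD79B by a log2 difference of -1.17, and ALAS2, an erythroid marker, was higher by 0.57. The part of these markers in the results below was not tested. The CEM PA arrays and the CEM RES arrays were scanned in different sessions on different slides, so line and scan session cannot be told apart. In RNA from a whole culture, fewer cells making a transcript and less of it in each cell cannot be told apart either.

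Promoter sequence was looked at because E2F control is the best-known shared feature of these genes. A promoter in RefSeq (GRCh38.p14), from 250 bases before to 50 after the start, was matched to 43 of the 49 genes, while MCM4, MCM5, GINS4, POLD3, RPA2 and RPA3 were not matched. The E2F-like letters TTTCCCGC, TTTCGCGC, TTTGCCGC or TTTGGCGC, searched on both strands, were in at least 1 promoter of 21 of the 43 genes (48.8%). They were in 6.25% of the 10152 tested genes with a promoter and in 3.31% of all 35116 promoters of that length. The letters CCAAT, on either strand, were in 62.8% of the 43 genes and 42.9% of tested genes, and TTTGAA in 4.65% and 14.3%. Of the matched genes called higher in mock CEM RES (see the line comparison), 8 of 15 held the E2F-like letters, of those called lower 4 of 8, and of those not called 9 of 20, so genes of both directions and of neither held them. The 120 bases before the start are printed for 2 genes called higher in mock CEM RES, RFC3 and ORC3, and 2 called lower, POLE and LIG1, with the E2F-like letters or their complement in capitals.
RFC3 (chr13:33818029-33818148, plus strand): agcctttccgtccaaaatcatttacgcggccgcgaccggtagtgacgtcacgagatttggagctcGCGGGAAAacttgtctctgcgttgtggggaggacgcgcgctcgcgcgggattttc
ORC3 (chr6:87590015-87590134, plus strand): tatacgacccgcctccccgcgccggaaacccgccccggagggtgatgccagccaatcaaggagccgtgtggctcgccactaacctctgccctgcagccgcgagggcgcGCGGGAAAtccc
POLE (chr12:132687343-132687462, minus strand): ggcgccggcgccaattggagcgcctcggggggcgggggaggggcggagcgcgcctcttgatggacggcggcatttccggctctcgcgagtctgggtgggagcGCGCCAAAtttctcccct
LIG1 (chr19:48170345-48170464, minus strand): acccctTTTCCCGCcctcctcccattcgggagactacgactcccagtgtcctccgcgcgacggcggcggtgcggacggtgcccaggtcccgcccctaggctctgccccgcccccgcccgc
The first capital lies 55 bases before the start in RFC3, 12 in ORC3, 18 in POLE and 114 in LIG1. RFC3, ORC3 and, on the opposite strand, LIG1 hold the same 8 letters, so genes called higher and lower in mock CEM RES share them, and POLE holds others. The RFC3 and POLE calls rest on the brighter probe of each gene. The ORC3 call lay just under the threshold (adjusted p = 0.0499 with limma).

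The first comparison was between the lines without the drug. In mock CEM RES, 19 replication genes were higher and 9 lower than in mock CEM PA at an adjusted p under 0.05, while 21 did not pass. That is 57.1% of the 49, against 47.7% of all 17596 genes tested, with 38.8% higher against 24.7% and 18.4% lower against 23%. By the double threshold of the study's methods, an unadjusted p under 0.05 with an absolute log2 difference above 0.75, 5 genes were higher and 5 lower (20.4%), against 34.6% of all genes tested. The members thus passed the test about as often as other genes, and their differences were smaller. The median absolute log2 difference was 0.42 against 0.55, and 22 of 49 exceeded 0.5 in size against 53.4% of all genes. The 49 were well above background on every array, while other genes needed this only throughout any group. Sizes among equally detected genes were not compared, here or in the comparisons with all genes below. The median signed difference was 0.02 (all genes 0.04). By the brightest probe of each gene, the range was from -1.41 (POLD1) to 1.20 (MCM4). Arrays of the lines did not overlap for 26 members (53.1%), as for 48.9% of all genes.

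**Figure D1:**
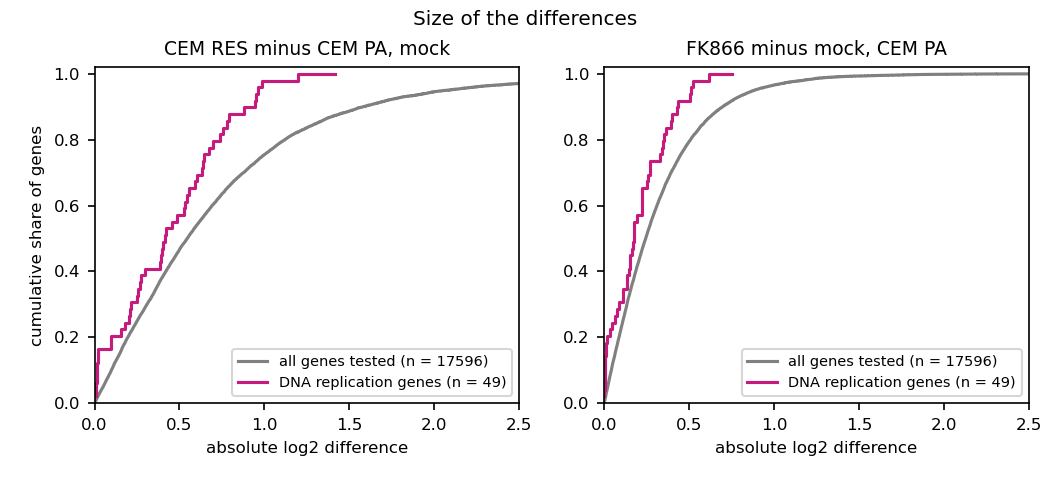
Cumulative share of genes (vertical axis) by absolute log2 difference (horizontal axis) for the 49 DNA replication genes and all 17596 genes tested, in mock CEM RES against mock CEM PA (left) and FK866 against mock in CEM PA (right). The medians were 0.42 for the replication genes and 0.55 for all genes on the left, and 0.17 and 0.24 on the right. The curve of the replication genes ends at 1.41 on the left and 0.75 on the right. It could not end later than that of all genes, which include them. The replication genes were well above background on every array, which was not required of all genes tested.

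With FK866 in both lines, 13 members were higher and 6 lower in CEM RES at an adjusted p under 0.05 (38.8%, against 35.5% of all genes), and 7 were higher and 3 lower by the double threshold (20.4%, against 29.6%). This comparison shares no array with the mock one. Of the members, 17 were called in the same direction in both and 0 in opposite directions, which is 60.7% of the mock calls and 89.5% of the FK866 calls. Over all genes these shares were 58.8% and 79.0%. Arrays of the lines did not overlap for 29 members (59.2%), against 57.7% of all genes. The sign was the same for 40 of 49 members (81.6%), as for 80.7% of all genes. GINS2, MCM2, MCM5, ORC4, ORC6, POLD3, POLE3, POLE4, PRIM2, RPA3 and TYMS were called without the drug and not with it, and GMNN and RFC4 with it and not without it. No member passed the test of the difference between both drug responses, so none of these is shown to differ between the conditions.

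**Figure D2:**
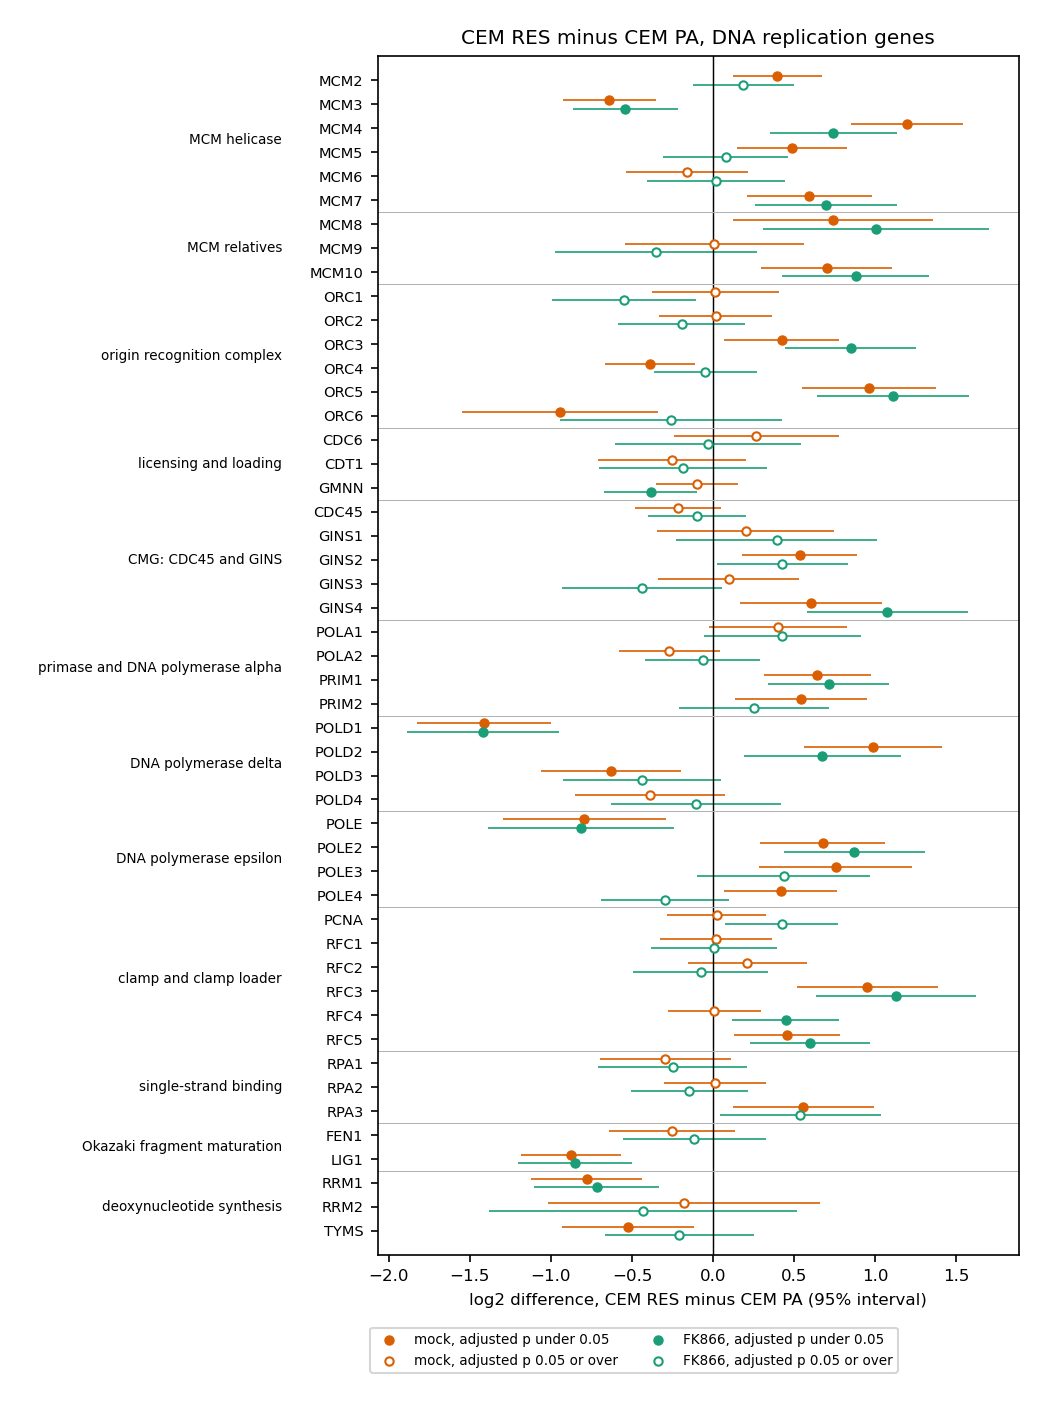
Log2 difference, CEM RES minus CEM PA, with its 95% interval, for the 49 genes grouped by role, for mock samples and for samples with FK866. Filled points passed an adjusted p under 0.05. Points on both sides of 0 occur within the MCM helicase, both replicative polymerases and the origin recognition complex.

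Of the 12 role groups, 4 held members called in opposite directions between the mock lines: the MCM helicase, the origin recognition complex, DNA polymerase delta and DNA polymerase epsilon. Polymerase epsilon is counted here through the brighter of 2 POLE probes, and with the mean of both probes POLE was not called in either comparison (adjusted p = 0.32 and 0.13). With FK866 this held for 3 of 12, the origin recognition complex then having calls in 1 direction only. Between the mock lines 24.7% of all genes tested were called higher and 23% lower, so groups of other genes could hold both directions too. How often groups of these sizes do so was not counted. By the brightest probe of each gene, the widest range was in polymerase delta. Its highest and lowest log2 differences were 2.40 apart (mock) and 2.09 apart (FK866).

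In the MCM helicase, the ring that unwinds the template, MCM2, MCM4, MCM5 and MCM7 were higher in mock CEM RES and MCM3 was lower, while MCM6 did not pass (-0.16, adjusted p = 0.48). MCM4 had log2 signals of 11.08, 10.92 and 11.03 in CEM PA mock, 11.51 and 11.37 in CEM PA with FK866, 11.99, 12.41, 12.31 and 12.10 in CEM RES mock, and 12.49, 12.19, 12.14 and 11.91 in CEM RES with FK866. All 8 CEM RES arrays lay above all 5 CEM PA arrays. The log2 difference was 1.20 ± 0.16 (SE) without the drug (2.29-fold, adjusted p = 0.00011) and 0.74 ± 0.18 with it (adjusted p = 0.0077). MCM3 had 16.28, 15.94 and 15.93 in CEM PA mock, 16.20 and 15.94 with FK866, 15.38, 15.37, 15.46 and 15.45 in CEM RES mock and 15.49, 15.53, 15.45 and 15.64 with FK866. Here all CEM RES arrays lay below all CEM PA arrays, with differences of -0.64 ± 0.13 (adjusted p = 0.0019) and -0.54 ± 0.15 (adjusted p = 0.015). Subunits of 1 ring were thus measured in opposite directions. MCM7 was higher in both comparisons (0.59 and 0.70), and MCM2 (0.40) and MCM5 (0.49) passed in the mock samples. The MCM5 call rested on its brighter probe: the other gave -0.19 without the drug and -0.75 ± 0.20 with it (adjusted p over all probes = 0.39 and 0.012), and with the mean of both MCM5 was not called in the mock samples (0.15, adjusted p = 0.47). With the mean of its probes MCM7 kept its call without the drug and lost it with FK866 (0.50, adjusted p = 0.16). MCM8, a relative that works in recombination, was higher by 0.74 and 1.01, and MCM10, which helps to start the helicase, by 0.70 and 0.88. The MCM10 log2 signals were 9.19, 8.97 and 8.97 in CEM PA mock, 8.82 and 8.75 with FK866, 9.71, 9.84, 9.74 and 9.68 in CEM RES mock and 10.07, 9.43, 9.25 and 9.89 with FK866, so the lines did not overlap.

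In the origin recognition complex, which marks where replication can begin, ORC3 and ORC5 were higher and ORC6 and, by its brighter probe only, ORC4 were lower in mock CEM RES. ORC2 did not pass by its brighter probe, while its other probe was higher in CEM RES (see the probes below). ORC5 had 10.97, 11.06 and 10.51 in CEM PA mock, 10.58 and 10.67 with FK866, 11.54, 11.87, 12.12 and 11.70 in CEM RES mock and 11.45, 11.97, 11.90 and 11.63 with FK866. The lines did not overlap, and the differences were 0.96 ± 0.19 (adjusted p = 0.0015) and 1.11 ± 0.22 (adjusted p = 0.0021). ORC3 had 10.56, 10.81 and 11.12 in CEM PA mock, 10.27 and 10.73 with FK866, 11.05, 11.36, 11.34 and 11.27 in CEM RES mock and 11.26, 11.36, 11.43 and 11.35 with FK866. One mock array of CEM PA thus reached into the CEM RES range, and the difference was 0.42 (adjusted p = 0.0499) without the drug and 0.85 ± 0.19 (adjusted p = 0.0042) with it. ORC6 had 12.35, 11.56 and 11.86 in CEM PA mock, 11.43 and 11.19 with FK866, 11.28, 11.24, 10.61 and 10.78 in CEM RES mock and 11.43, 11.38, 10.38 and 11.00 with FK866. Its mock groups did not overlap (-0.95 ± 0.28, adjusted p = 0.014), its FK866 groups did (-0.26, adjusted p = 0.55), and without the first CEM PA mock replicate, its highest array, the mock call was lost (adjusted p = 0.074). Of the loading factors, CDC6 and CDT1 did not pass in either comparison. GMNN, which blocks CDT1 after replication has begun, had 13.85, 13.93 and 13.82 in CEM PA mock, 14.13 and 14.29 with FK866, 13.74, 13.80, 13.89 and 13.64 in CEM RES mock and 13.82, 13.74, 13.86 and 13.86 with FK866. It was lower in CEM RES only in the samples with FK866 (-0.38 ± 0.13, adjusted p = 0.039), where the groups did not overlap, and the difference between the responses did not pass (adjusted p = 0.58).

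CDC45 and the GINS complex complete the active helicase. GINS4 had 10.94, 11.64 and 11.43 in CEM PA mock, 10.77 and 10.88 with FK866, 12.00, 12.23, 11.55 and 11.98 in CEM RES mock and 12.19, 11.90, 11.77 and 11.73 with FK866. With FK866 the lines did not overlap and differed by 1.08 ± 0.23 (adjusted p = 0.0036), and without it they overlapped and differed by 0.60 ± 0.20 (adjusted p = 0.027). GINS2 was higher in mock CEM RES (0.53, adjusted p = 0.017), while GINS1, GINS3 and CDC45 did not pass in either comparison, with differences from -0.44 to 0.39. Of primase, the catalytic subunit PRIM1 had 12.18, 12.03 and 11.89 in CEM PA mock, 11.90 and 12.18 with FK866, 12.45, 12.76, 12.91 and 12.59 in CEM RES mock and 12.63, 12.81, 12.93 and 12.64 with FK866. All CEM RES arrays lay above all CEM PA arrays, by 0.64 ± 0.15 (adjusted p = 0.0042) and 0.71 ± 0.17 (adjusted p = 0.0072). The polymerase alpha subunits POLA1 (0.40 and 0.43) and POLA2 (-0.27 and -0.07) did not pass.

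By the brightest probe of each gene, polymerase delta, which copies the lagging strand, held the largest difference of the 49 genes. Its catalytic subunit POLD1 had 14.14, 14.21 and 14.37 in CEM PA mock, 14.28 and 14.22 with FK866, 13.28, 12.81, 12.39 and 12.84 in CEM RES mock and 12.98, 12.70, 12.63 and 13.01 with FK866. Every CEM RES array lay below every CEM PA array. The difference was -1.41 ± 0.19 without the drug (2.66-fold lower, adjusted p = 0.00011) and -1.42 ± 0.21 with it (2.68-fold lower, adjusted p = 0.00047). The accessory subunit POLD2 ran the other way, with 11.20, 11.04 and 10.70 in CEM PA mock, 10.85 and 10.84 with FK866, 11.78, 11.88, 12.27 and 11.93 in CEM RES mock and 11.24, 11.76, 11.84 and 11.23 with FK866. It was higher by 0.99 ± 0.20 (adjusted p = 0.0015) and 0.67 ± 0.22 (adjusted p = 0.034). POLD3, a further accessory subunit, was lower in mock CEM RES (-0.63, adjusted p = 0.020), and POLD4 did not pass (-0.39 and -0.10).

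**Figure D3:**
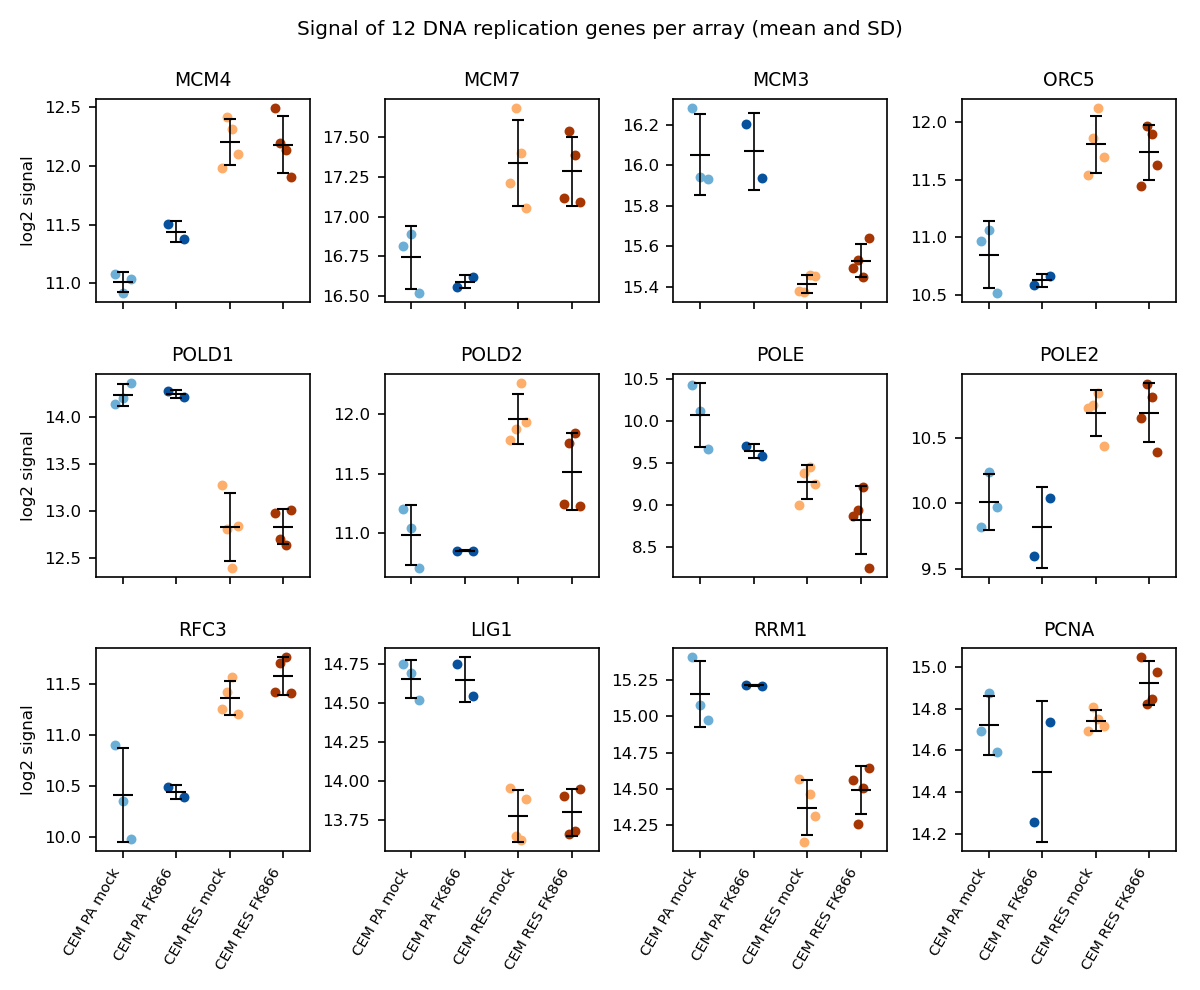
Log2 signal of 12 replication genes on each array (points) with the group mean and SD (bars), by group, each panel with its own axis that does not start at 0. POLD1, LIG1, RRM1 and MCM3 lie lower and MCM4, ORC5, POLE2 and RFC3 higher on every CEM RES array than on every CEM PA array, while the PCNA mock groups overlap.

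Polymerase epsilon, the leading-strand enzyme, also held subunits measured in both directions, although the lower value rests on 1 probe of its catalytic subunit. POLE had 10.42, 10.12 and 9.66 in CEM PA mock, 9.70 and 9.58 with FK866, 9.01, 9.38, 9.46 and 9.26 in CEM RES mock and 8.88, 8.94, 9.22 and 8.26 with FK866, the lowest CEM PA array lying above the highest CEM RES array. The differences were -0.79 ± 0.23 (adjusted p = 0.014) and -0.81 ± 0.26 (adjusted p = 0.030). They belong to the brighter of 2 POLE probes, and the other did not go that way (see the probes below). POLE2 had 9.82, 10.24 and 9.97 in CEM PA mock, 9.60 and 10.04 with FK866, 10.73, 10.75, 10.84 and 10.43 in CEM RES mock and 10.65, 10.91, 10.81 and 10.39 with FK866. It did not overlap between the lines and was higher by 0.68 ± 0.18 (adjusted p = 0.0077) and 0.87 ± 0.20 (adjusted p = 0.0055). The histone-fold subunits POLE3 (0.76, adjusted p = 0.013) and POLE4 (0.42, adjusted p = 0.048) were higher in mock CEM RES. For POLE3 this included 1 array far above the other CEM RES mock arrays, given below.

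Of the clamp and its loader, PCNA itself did not pass (0.02 and 0.42, adjusted p = 0.91 and 0.056). The loader subunit RFC3 had 10.90, 10.35 and 9.99 in CEM PA mock, 10.49 and 10.39 with FK866, 11.25, 11.42, 11.57 and 11.21 in CEM RES mock and 11.42, 11.70, 11.76 and 11.41 with FK866. The lines did not overlap, and it was higher by 0.95 ± 0.20 (adjusted p = 0.0021) and 1.13 ± 0.23 (adjusted p = 0.0025). Both RFC3 calls rest on the brighter probe and were lost with the mean of its probes (0.51 and 0.62, adjusted p = 0.071 and 0.068). RFC5 was higher by 0.46 and 0.60, RFC4 passed with FK866 only (0.45), and RFC1 and RFC2 did not pass. Of the single-strand binding protein, RPA3 was higher in mock CEM RES (0.56, adjusted p = 0.037), while RPA1 and RPA2 did not pass.

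LIG1, the ligase that seals lagging-strand fragments, had 14.75, 14.70 and 14.52 in CEM PA mock, 14.75 and 14.55 with FK866, 13.96, 13.65, 13.62 and 13.89 in CEM RES mock and 13.91, 13.66, 13.68 and 13.95 with FK866. All CEM RES arrays lay below all CEM PA arrays, by -0.88 ± 0.14 (1.84-fold, adjusted p = 0.00041) and -0.85 ± 0.16 (adjusted p = 0.0019). FEN1, which trims flaps before LIG1 seals the fragments, did not pass (-0.25 and -0.12). RRM1, the large subunit of ribonucleotide reductase, had 15.40, 15.08 and 14.97 in CEM PA mock, 15.22 and 15.21 with FK866, 14.57, 14.14, 14.47 and 14.32 in CEM RES mock and 14.56, 14.26, 14.51 and 14.65 with FK866. The lines did not overlap, with differences of -0.78 ± 0.16 (adjusted p = 0.0016) and -0.72 ± 0.18 (adjusted p = 0.0083). Its small subunit RRM2 spread widely within groups, from 9.13 to 10.77 in CEM RES with FK866, and did not pass (-0.18 and -0.43). TYMS, which makes thymidylate, was lower in mock CEM RES (-0.53, adjusted p = 0.035).

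**Figure D4:**
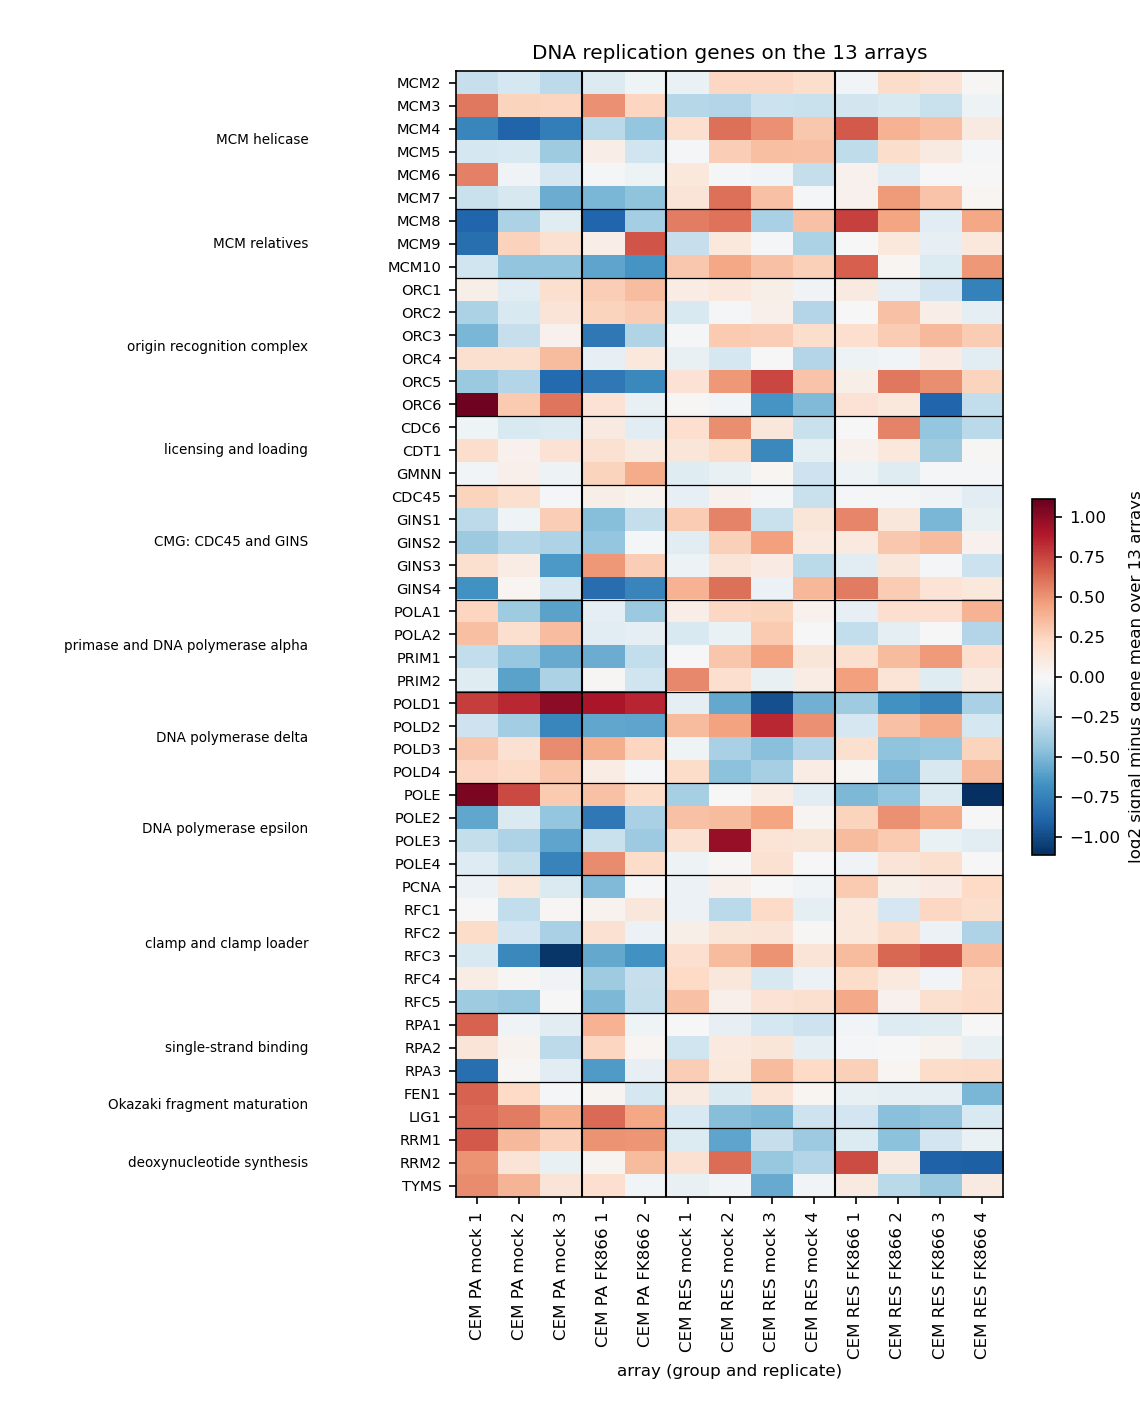
Log2 signal of the 49 genes (rows, grouped by role) on the 13 arrays (columns), each gene minus its mean over all arrays. POLD1, LIG1, RRM1 and MCM3 are high on the 5 CEM PA arrays and low on the 8 CEM RES arrays, and MCM4, ORC5 and RFC3 are the other way round, with no such change between mock and FK866 columns of a line.

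The calls differed in how far they rested on single arrays. Between the mock lines, LIG1, MCM10, MCM3, MCM4, ORC5, POLD1, POLD2, POLE2, PRIM1 and RRM1 kept an adjusted p under 0.05 in all 26 other settings, 13 of which left out 1 array. RFC3 kept it without any 1 array but not with the mean of its probes, and 17 of the 28 calls were lost without at least 1. ORC3, POLE4 and MCM8, whose adjusted p values lay just under the threshold, were lost without 9, 12 and 9 of the 13 arrays. With FK866, GINS4, LIG1, ORC5 and POLD1 were called in all 26 settings. None of the settings could separate line from scan session. CEM PA with FK866 had 2 arrays, and fewer members were called without either of them. The share of all genes called with an array left out was not worked out. The drop is therefore not shown to be particular to the replication genes. MCM3, ORC3, POLE2, PRIM1 and RFC5 were lost without CEM PA FK866 replicate 1 and no other array, and MCM4 without replicate 2 of that group alone.

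The second question was what FK866 did to these genes in sensitive cells. By the brightest probe of each gene, 0 of 49 members passed an adjusted p under 0.05 with limma in CEM PA (0.511% of all genes did). Likewise 0 passed the double threshold (5.47%). At an unadjusted p under 0.05 there were 4 (8.16%, against 13.5%): POLE4 and GMNN with higher, and POLA2 with lower signal, and MCM4 with higher signal. The log2 differences ran from -0.61 (ORC6) to 0.75 (POLE4), with a median of 0.00 (all genes -0.02), and 5 exceeded 0.5 in size, against 20.6% of all genes. Arrays did not overlap for 15 members (30.6%), against 34.4% of all genes. The 95% interval lay within 1 log2 unit of 0, a change of less than 2-fold, for 42 of the 49 genes, and within 0.75 for 33. For the other 7 genes this comparison of 3 against 2 arrays could not set that limit.

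POLE4, named here after its values were seen, came nearest to a call. It had 12.87, 12.75 and 12.28 in CEM PA mock and 13.54 and 13.22 with FK866, so both drug arrays lay above all mock arrays. The difference was 0.75 ± 0.19 (1.68-fold, unadjusted p = 0.0020, adjusted p = 0.11), and a second POLE4 probe gave 0.63 ± 0.16 (adjusted p over all probes = 0.068). The value was 0.67 in the first scan session and 0.71 in the second. In CEM RES the same gene differed by 0.04, and the difference between the responses was -0.71 ± 0.24 (unadjusted p = 0.012, adjusted p = 0.33). It passed an adjusted p of 0.05 in 1 of 26 other settings, with array quality weights (adjusted p = 0.031). The dimmer ORC2 probe gave 0.751 ± 0.20 in CEM PA (unadjusted p = 0.0031, adjusted p over all probes = 0.097 with limma), just past the double threshold. The brighter ORC2 probe gave 0.40 (unadjusted p = 0.061). Over probes, 0 of 65 passed an adjusted p under 0.05, against 1.53% of all probes.

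**Figure D5:**
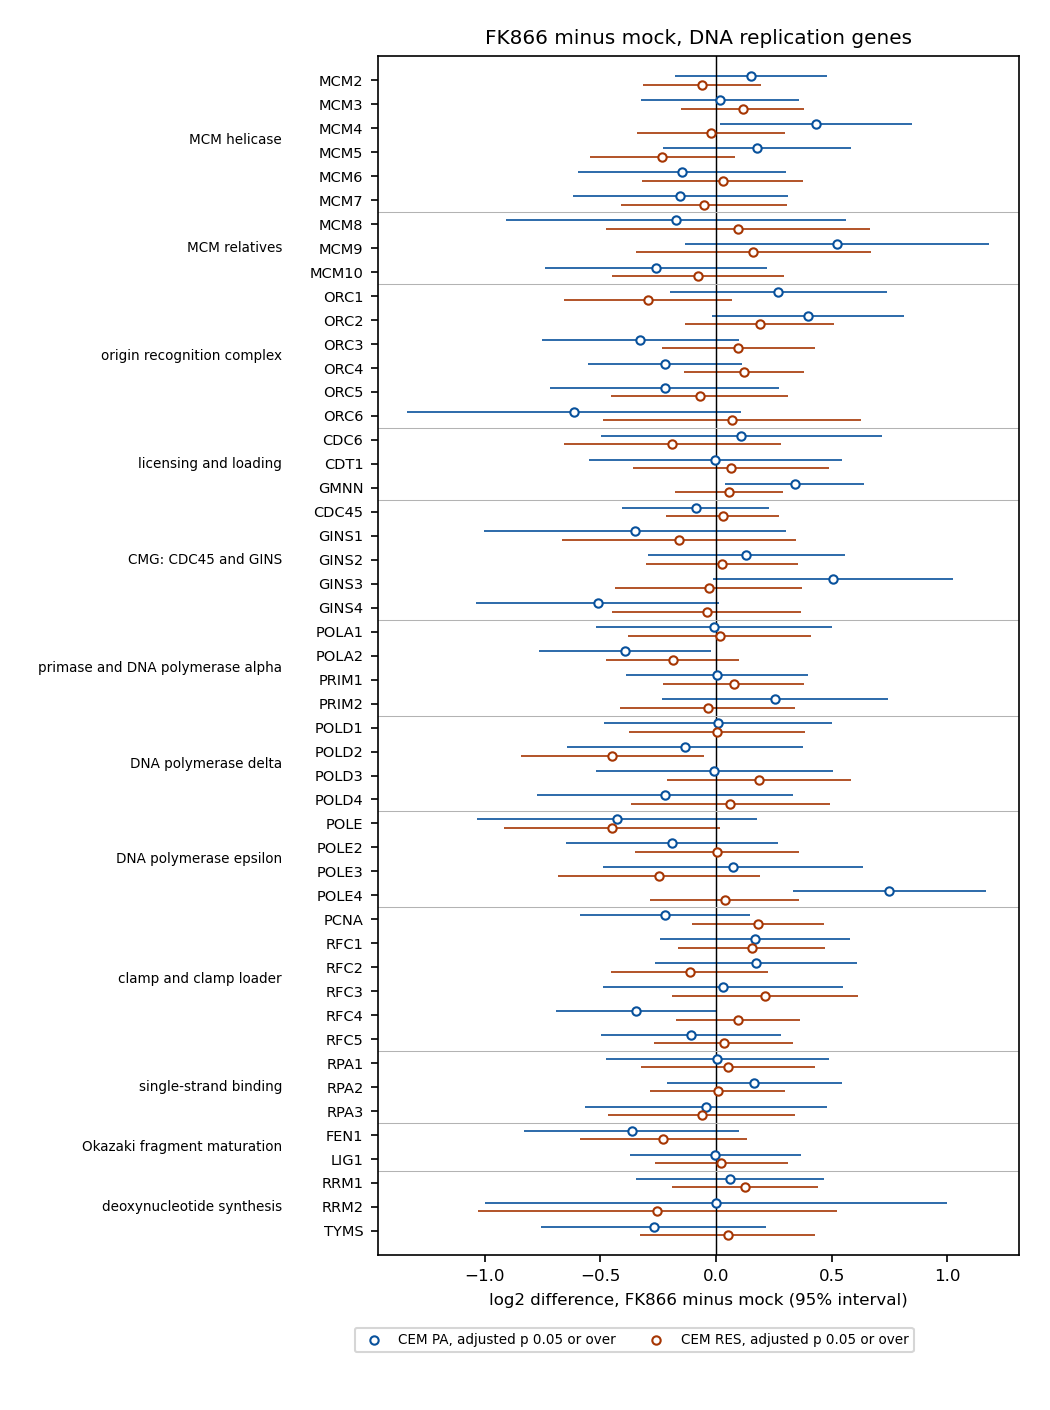
Log2 difference, FK866 minus mock, with its 95% interval, for the 49 genes grouped by role in CEM PA and CEM RES. All points are open, since none passed an adjusted p under 0.05, and the CEM RES intervals are the shorter ones, from 4 against 4 arrays.

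In CEM RES, FK866 likewise left 0 of 49 members past an adjusted p under 0.05 with limma, as 0 of all 17596 genes, and 0 past the double threshold (1.34% of all genes). At an unadjusted p under 0.05 there was 1 member (2.04%, against 4.78%): POLD2, lower by 0.45 ± 0.18 (unadjusted p = 0.030). Its arrays, given above, overlapped. Next by p among the lower ones were POLE (-0.45), whose array 4 at 8.26 was the lowest, ORC1 (-0.29) and MCM5 (-0.23). ORC1 had 10.57, 10.61, 10.56 and 10.45 in mock samples and 10.59, 10.40, 10.28 and 9.75 with FK866, and MCM5 had 13.81, 14.10, 14.16 and 14.15 and then 13.54, 14.02, 13.92 and 13.80. For both genes the groups overlapped. Among the higher ones were PCNA (0.18), ORC2 (0.19), RFC3 (0.21) and RFC1 (0.15). PCNA had 14.69, 14.81, 14.75 and 14.72 in mock samples and 15.05, 14.82, 14.84 and 14.98 with FK866, the 1 member whose groups did not overlap (2.04%, against 2.52%). ORC2 had 10.21, 10.36, 10.43 and 10.05 and then 10.38, 10.70, 10.45 and 10.28, and RFC1 had 12.02, 11.79, 12.30 and 11.98 and then 12.21, 11.90, 12.32 and 12.28, both with overlap. The 95% interval lay within 1 log2 unit of 0 for 48 of 49 genes, all but RRM2, and within 0.75 for 46. In size, 0 differences exceeded 0.5, against 7.64% of all genes. These counts use the brightest probe of each gene. Dimmer probes gave -0.41 for MCM5, -0.55 for MCM9 and -0.69 for MCM7 (unadjusted p = 0.026, 0.021 and 0.043 with limma). The brightest probes of MCM9 and MCM7 gave 0.16 and -0.05. Over probes, 0 of 65 passed an adjusted p under 0.05. Shares of all probes at an unadjusted p were not worked out.

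The responses of the lines were also compared with each other. With limma, 0 members passed an adjusted p under 0.05 (0.131% of all genes) or the double threshold (6.74%), and 2 had an unadjusted p under 0.05 (4.08%, against 11.1%): POLE4 and RFC4. The responses had the same sign in 24 of 49 members (49.0%), as in 46.8% of all genes. Within CEM PA the sign was the same in both scan sessions for 34 of 49 members, with medians of -0.15 and 0.00, and within CEM RES it was the same on both slides for 25 of 49, with medians of 0.07 and -0.06. Each of these rests on 1 or 2 arrays a side. The shares of all genes with the same sign were not worked out, so neither count is shown to be particular to the replication genes.

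Several probes per gene did not always give the same answer. Of 13 members with more than 1 probe, all probes had the same sign for 7 between the mock lines and for 10 in CEM PA with FK866. The same held for 7 between the lines with FK866 and for 6 in CEM RES with FK866. Over probes, 32 of 65 were called between the mock lines (23 higher, 9 lower), against 47.6% of all probes. The first 30 bases of the probes of 3 genes that disagreed are printed, with each whole probe's position in hg19.
ORC4, brighter probe (chr2:148693183-148693242, minus strand): aattaataaagcccatggaaagaacttcag
ORC4, other probe (chr2:148691768-148691827, minus strand): ggtttacaaaagacagactgtccctatgct
POLE, brighter probe (chr12:133202232-133202291, minus strand): cgagatgacgctggtggaagttctacagaa
POLE, other probe (chr12:133233948-133234007, minus strand): ttgggactactacattgagcggctgggaag
RFC3, brighter probe (chr13:34410688-34410747, plus strand): attcaagtattcattgttgatcctcctatt
RFC3, other probe (chr13:34409294-34409353, plus strand): agttcgtggaaggctgtatgagcttctaac
The ORC4 probes were called in opposite directions between the mock lines, at -0.39 ± 0.13 and 0.60 ± 0.15, so no direction can be given for this gene. The POLE probes gave -0.79 and 0.40 (adjusted p over all probes 0.014 and 0.082), and with their mean POLE was not called (adjusted p = 0.32). The array design assigns the RFC3 probes to different transcripts, NM_002915 and NM_181558, and they gave 0.95 and 0.07. The MCM5 probes differed in sign as well, as given above. Of the ORC2 probes, the brighter gave 0.01 and the other 1.71 ± 0.17 (adjusted p over all probes = 1.5e-05), larger in size than the POLD1 difference. With FK866 in both lines they gave -0.19 and 0.71 (adjusted p over all probes = 0.43 and 0.013). Of the 4 MCM9 probes, between the mock lines, 1 gave 0.01 and 3 gave 0.89 to 1.12. PRIM2 gave 0.54, -0.69 and 0.19 between the mock lines, and with the mean of its probes it was not called (0.01, adjusted p = 0.97). Which exons these probes cover was not analysed here.

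The replication genes were set beside related lists. Between the mock lines, 5 of 37 other replication factors were higher and 7 lower (32.4% called, against 47.7% of all genes tested), among them TOPBP1 (0.92), a scaffold of origin firing, and DBF4 (1.11), the activator of the CDC7 kinase, as higher and the helicase RECQL4 (-1.31) and the cohesin acetyltransferase ESCO2 (-0.77) as lower. Of 38 nucleotide supply genes 19 were higher and 4 lower (60.5%), with a median of 0.41. These included NME1 (1.94), GART (1.24) and UMPS (1.19), enzymes of nucleotide phosphorylation, purine synthesis and pyrimidine synthesis, and on the lower side RRM2B (-1.51), AK1 (-1.33), NUDT1 (-0.64) and TK1 (-0.59). RRM1 and TYMS, which belong to the 49, were lower as given above. Of 41 mitotic genes 7 were higher and 13 lower (48.8%), from INCENP (-2.42), a chromosomal passenger protein, to the proliferation marker MKI67 (3.38). Of 20 translesion and repair polymerases 3 were higher and 3 lower (30%). Of 18 E2F and RB family genes, E2F5 was higher (1.19) and 6 were lower (38.9% called), among them E2F3 (-1.49), RB1 (-1.02), LIN9 (-0.95) and E2F8 (-0.89).

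With FK866 in both lines the same lists had 5 higher and 3 lower of 37 (other replication factors, 21.6% called), 15 and 1 of 38 (nucleotide supply, 42.1%), 7 and 11 of 41 (mitotic genes, 43.9%), 4 and 3 of 20 (translesion and repair polymerases, 35%) and 1 and 8 of 18 (E2F and RB family, 50%). Of all genes tested 35.5% were called, 18.6% higher and 16.9% lower. In response to FK866, 0 genes of these lists passed an adjusted p under 0.05 with limma in CEM PA or in CEM RES. Their median log2 differences were between -0.01 and 0.14 in CEM PA and between 0.02 and 0.11 in CEM RES.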

How the data were processed

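Per the labels, RNA of 13 samples was labelled with Cy3 and hybridized to 1-colour Agilent Human GE arrays read with Agilent Feature Extraction 10.7.7.1. The authors deposited spot intensity files, background-corrected within each array, and a table of log2 values quantile normalized over the arrays, used here as an alternative. Here the processed intensity was put on the log2 scale, outlier spots were set to missing, control spots removed, arrays quantile normalized and spots of a probe averaged. Probes well above background on all arrays of any group were kept (22753 of 34127), and the kept probe with the highest mean stood for its gene (17596 genes). Levels of different probes were not compared. One limma model (3.58.1 in R 4.3.3) held the 4 groups, and p values, two-sided, were adjusted by Benjamini-Hochberg over all genes tested. Differences are given with standard errors, and coordinates of probes are those of the files (hg19). Replicate arrays correlated at 0.978 to 0.991 across genes, which are not independent replicates. Precision is limited by the number of arrays and by signal over background, since there are no counts.

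The members, gene lists and tests were chosen with earlier results of these data known. Values per array are given for up to 6 members per direction with the smallest adjusted p in each line comparison and up to 4 per direction with the smallest p in CEM RES with FK866, and up to 4 genes per direction are named from other lists. POLE4 in CEM PA was named after its values were seen, and so were dimmer probes of ORC2, MCM5, MCM7 and MCM9 in the drug responses. Some genes that the rule would name are not reported here. The labels number the replicates and state no pairing. For mock and FK866 samples of equal number, the correlation of deviations from the group means was 0.440 and 0.343 in CEM PA and 0.217 to 0.484 in CEM RES. Unequal numbers were not compared, and the CEM PA arrays with replicate number 1 shared a slide and scan session. These values therefore do not establish a pairing.

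Alternatives were 75th percentile scaling, normexp background correction (offset 50), no filter and a stricter filter, keeping outlier spots, averaging a gene's probes, the deposited table, fitting only the groups compared, blocking on slide or on replicate number, weighting arrays by quality, an intensity trend in the variances, and leaving out each array. Scan session as a block and a fit of every probe were added after seeing the data. The procedure was tested on simulated data. Python 3.11.15, pandas 2.3.3 and numpy 2.4.6 were used to read the intensities.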

Additional observations from a re-analysis of the deposited data

Results flagged for a closer look

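Of 98 sets of 4 CEM RES arrays, 1 per gene and condition, 5 held an array far from the other 3, and chance gives about 1 in 20. The log2 signal of POLE3 was 14.2947 in CEM RES mock replicate 2 and from 13.4565 to 13.4938 on the other 3. MCM2 (14.1992, the others from 14.4698 to 14.5066) and MCM5 (13.8071, the others from 14.0979 to 14.1559) were low in CEM RES mock replicate 1, the array with the most outlier spots (773). TYMS was low in CEM RES mock replicate 3 (15.1842, the others from 15.6653 to 15.7147), and FEN1 in CEM RES FK866 replicate 4 (11.4513, the others from 11.8656 to 11.8789). The MCM2 and MCM5 values each came from 1 spot, and outlier spots were set to missing, so neither value is from a flagged spot. Why they were low was not tested.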

How the results depend on the processing

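Of the 28 members called between the mock lines 10 were called in all 26 other settings, and of the 19 called with FK866 4 were. With all arrays kept, 18 to 28 members were called between the mock lines and 15 to 23 with FK866, the lowest mock count (18, all among the 28) coming from a fit of the compared groups alone. The shares of all genes called in these and the following settings were not worked out. With 1 array left out the counts were 19 to 26 and 6 to 20. By the double threshold they were 9 to 11 and 7 to 12 with all arrays, and 8 to 13 and 7 to 14 without 1. In CEM RES with FK866 no setting called a member. In CEM PA with FK866, array quality weights called 1 member by adjusted p. By the double threshold 1 member was called with 75th percentile scaling, outlier spots kept, the deposited table or slide as a block, and 0 to 2 without 1 array. For the difference between the responses, 1 was called with 75th percentile scaling or normexp, and 0 to 1 without 1 array. With the replicate number as a block, 28 (mock) and 20 (FK866) members were called between the lines, 0 in each drug response and 0 in their difference, so this block moved no count by over 1.5 times. With scan session as a block, chosen after seeing the data, the line counts were 23 and 17. No slide or scan session held arrays of both lines, so blocking on either could not separate line from session.

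ORC4 turned to 0.10 (adjusted p = 0.54) between the mock lines with the mean of its probes. The median log2 difference of the members moved to -0.154 with slide as a block in CEM PA (-0.0747 to 0.0454 without 1 array), to 0.106 with 75th percentile scaling and 0.105 with the mean of probes between the mock lines (0.0206 to 0.170 without 1 array), and to -0.0815 with 75th percentile scaling and 0.135 with slide as a block for the difference between the responses (-0.0229 to 0.0987 without 1 array). With FK866 it was -0.0398 to 0.0374 between the lines without 1 array. Under 75th percentile scaling the all-gene median went from 0.04 to 0.16 (mock) and from 0.09 to 0.22 (FK866), and it called 24 and 18 members. The causes were not tested. The 2 CEM PA arrays with FK866 limit the precision most.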
